A study of Sus scrofa with 8 samples.

Results

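Of the 2922 genes that the platform annotation gives as the only symbol of a spot, 27 belong to families that package or remodel chromatin. They were chosen by symbol alone, as every gene whose symbol starts with SMARC, HDAC, HMGA, HMGB, HMGN, CHD and a digit, KDM, KMT, KAT and a digit, CBX, H1-, H2A, H2B, H3- or H4-. Of these 15 prefixes 12 had a member: 4 genes were SMARC, 5 HDAC, 5 KAT, 3 HMGN, 6 histones (1 H1-, 3 H2A, 1 H2B and 1 H3-), and CHD, KDM, KMT and CBX had 1 each. No gene with the prefix HMGA, HMGB or H4- was found. The 27 genes were read by 60 spots, 4 each for CHD4, HMGN2 and HMGN3 and 2 each for the rest.

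In muscle as elsewhere, DNA is wrapped around octamers of core histones and sealed by linker histones, and this wrapping limits access to genes. Remodelling complexes such as SWI/SNF and NuRD use ATP to slide or evict nucleosomes. Acetyltransferases and deacetylases set and remove acetyl groups on histone tails, and methyltransferases and demethylases do the same for methyl groups. HP1 proteins bind methylated histone H3, and HMGN proteins bind nucleosomes. Class IIa deacetylases and SWI/SNF are known in muscle for restraining and assisting, respectively, the MEF2 and MYOD1 programmes.

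The series compared skeletal muscle of pigs (Sus scrofa) fed a high energy or a low energy diet, with no breed, age or named muscle given in the sources used here. Total RNA of 1 high energy and 1 low energy sample was hybridised together on each of 8 arrays whose probes are annotated with human genes, in 4 couples with both dye orientations. Couple 1 set low energy sample 49 against high energy sample 40, couple 2 set 61 against 41, couple 3 set 142 against the same high energy sample 40, and couple 4 set samples named be (low) and ae (high). Whether such a name is an animal or a pool is not stated, so errors and p-values cover only how far the couples differ, part of which may be technical. Each value is a log2 ratio, taken as high over low energy, which the channel order and the naming of low energy as reference make the likely direction but do not state. The turned value, given for comparison, reverses the sign wherever high energy was in dye 3 before averaging: it is the diet ratio if the values are 1 dye over the other, and otherwise the dye effect. Both arrays of a couple compare the same pair of samples, so their mean counts as 1 replicate.

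Arrays carried values for 77.6% to 94.4% of 9984 spots, with an SD of 0.341 to 0.724. Correlations over all spots were near 0 throughout, between -0.0289 and 0.0689 for arrays of different couples with the same dye orientation, -0.0415 and 0.0444 with opposite orientations, and -0.043 and 0.0793 for the 2 arrays of a couple, which compare the same samples. All 18 muscle markers on the array, of 20 listed, gave ratios in at least 3 couples, among them ACTA1, CKM and TTN. Of these 18, 0 passed an adjusted p of 0.05 in limma. An unadjusted p under 0.05 in limma was found for 3 of them, beside 3.78% of all features. These were MYL1 with 0.37 (turned -0.036), MB with -0.32 (turned 0.22) and TNNT1 with -0.21 (turned -0.047). Of the 18, 5 kept 1 sign on all 8 arrays, beside 2.25% of all features measured on all 8. Of markers of other cells, 2 of 14 for proliferation, 4 of 6 for blood, 8 of 14 for immune cells, 6 of 10 for fibroblasts, 3 of 8 for vessels and 2 of 6 for adipocytes were tested, with median ratios between -0.11 and 0.19 and 0 at an adjusted or an unadjusted p under 0.05 in limma. Their part in the results below was not tested, and a ratio cannot tell a change in cell numbers from a change in RNA per cell.

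No chromatin gene passed the test for a difference between the diets once all features were taken into account. Of the 27 genes, 25 had both dye orientations in at least 3 couples and were tested, and 0 of them passed a Benjamini-Hochberg adjusted p of 0.05 in limma, as was so for 0% of all 5025 features tested. Their smallest adjusted p was 0.996. Above 0 lay 12 and below 0 lay 13, with a median log2 ratio of -0.018 (turned 0.033), beside a median of -0.012 over all features. The median size of a ratio was 0.094 among members and 0.090 among all features. At an unadjusted p under 0.05 there was 1 member, SMARCA4, which is 1 of 25 against 3.78% of all features. In the turned contrast there was again 1, KDM4B, against 2.65% of all features. Both counts are what the background share gives for a list of this size.

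Sign agreement was as sparse. Among the 20 members measured in all 4 couples, 4 kept 1 sign in every couple, SMARCA4 and KDM4B above 0 and HMGN4 and H1-2 below, which is close to the 16.6% of all 3640 features measured in all couples. HMGN4 was the 1 member of these 20 with 1 sign on all 8 arrays, against 2.25% of those features. With 4 couples, the smallest two-sided p that an exact sign-flip test allows is 0.13, so 1 sign in every couple cannot pass 0.05 in that test.

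**Figure D1:**
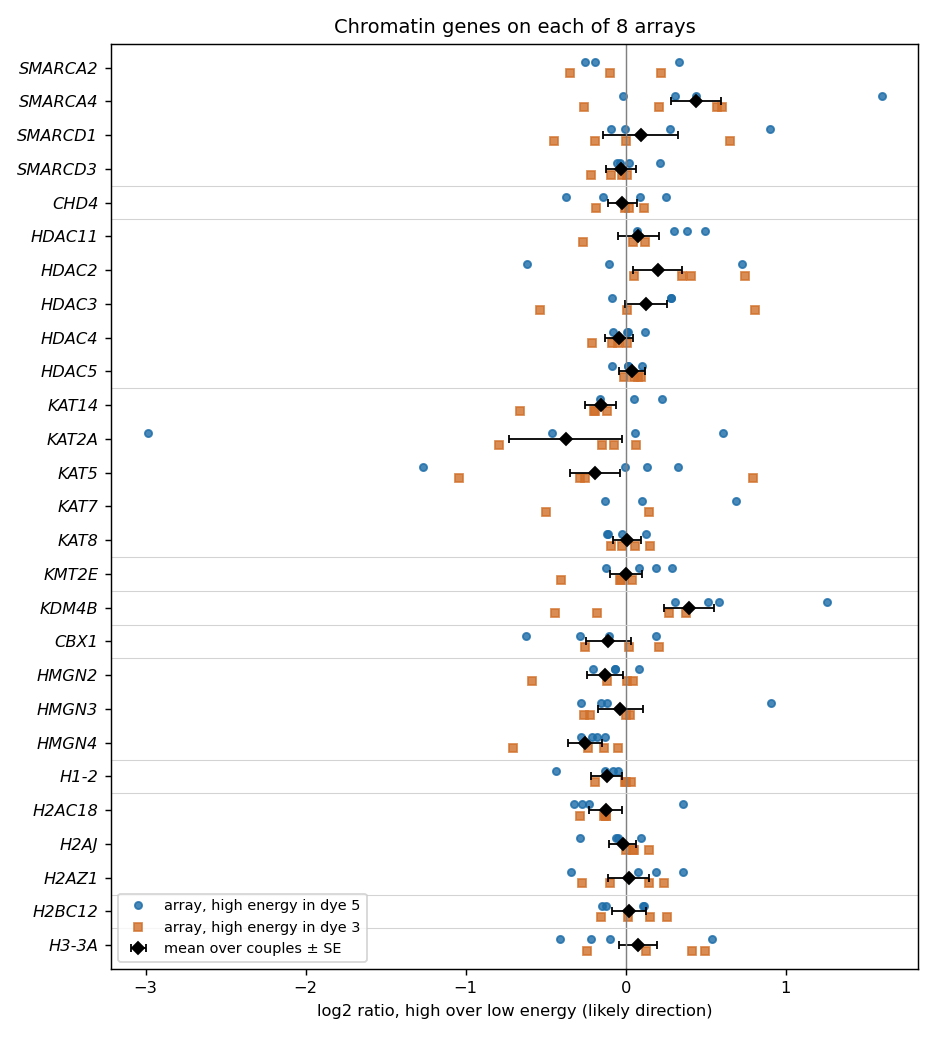
Log2 ratio of high over low energy muscle (likely direction, x axis) for the 27 chromatin genes (rows, grouped by prefix): circles are arrays with high energy in dye 5, squares arrays with high energy in dye 3, and diamonds with bars the mean over couples ± SE for the 25 genes tested. HMGN4 has all 8 arrays below 0, HDAC5 the narrowest spread (SD 0.063) and KAT2A the widest (SD 1.10), with 1 array at -2.99.

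Among the catalytic subunits of remodelling complexes, SMARCA4 (Entrez gene 6597), the BRG1 ATPase of SWI/SNF, had the highest ratio of the 25 members. With high energy in dye 5 its values were -0.019, 0.31, 1.60 and 0.44 in couples 1 to 4, and with high energy in dye 3 they were 0.21, 0.57, -0.26 and 0.60. Thus 6 arrays lay above 0 and 2 below, and couple 3 held both its highest and its lowest value. The couple means were 0.095, 0.44, 0.67 and 0.52, and their fitted mean was 0.44 ± 0.16 (SE, n = 4 couples; turned 0.10; adjusted p = 0.996), a 1.36-fold difference. Without couple 3 the ratio was 0.35, and without couple 2 or couple 4 the unadjusted p was no longer under 0.05. Its 2 spots gave 14 of 16 values above 0. The 1.60 of couple 3 was the mean of 0.98 and 2.22 on the 2 spots, of which the swapped array read -0.68 and 0.16.

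The other ATPase of this complex, SMARCA2 (BRM), was measured in both orientations in 2 couples and was not tested. Its 6 arrays lay between -0.35 and 0.34, 2 of them above 0 and 4 below. The accessory subunit SMARCD1 (BAF60A) had 0.094 ± 0.23 (turned 0.11), and couple 3 set it apart, with a couple mean of 0.78 against -0.099 to -0.047 in the others. SMARCD3, the BAF60C subunit that works with MYOD1 in muscle, had -0.030 ± 0.092 (turned 0.057) with all arrays between -0.22 and 0.21.

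CHD4, the ATPase of the NuRD complex, had a mean near 0 and did not pass the test. Its arrays read 0.091, -0.37, -0.14 and 0.25 with high energy in dye 5 and -0.18, 0.11, 0.018 and -0.0021 with the dyes swapped. The orientations overlapped around 0, and the mean was -0.022 ± 0.090 (turned -0.023; adjusted p = 0.996). On 6 of 8 arrays its measured spots, 2 to 4 in number, fell on both sides of 0.

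The 3 HMGN genes, whose small proteins bind nucleosomes and loosen linker histone contacts, all had means below 0, and all above 0 when turned. HMGN4 (Entrez gene 10473) read -0.28, -0.18, -0.13 and -0.21 in couples 1 to 4 with high energy in dye 5, and -0.23, -0.13, -0.048 and -0.71 with high energy in dye 3. Every array lay below 0, and the swapped array of couple 4 was the lowest. The mean was -0.25 ± 0.10 (turned 0.054; adjusted p = 0.996; n = 4 couples), a 1.19-fold difference, and leaving out couple 4 moved it to -0.17. Both spots contributed, with 14 of 16 spot values below 0. Its unadjusted p was just over 0.05, and under it in 6 of the 16 alternative settings.

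HMGN2, from which HMGN4 is thought to derive by retroposition, had -0.13 ± 0.11 (turned 0.054) with 5 arrays below 0. Its couple means were 0.063, -0.028, -0.091 and -0.39, so that couple 4 was the lowest for both genes, and HMGN2 moved to -0.020 without that couple and to -0.064 with the median of its spots. On the couple 4 array with high energy in dye 3, where HMGN2 read -0.58, 1 of its 4 spots had -2.69 and the other 3 lay between -0.28 and 0.50. Probes annotated to such close relatives may bind the same pig transcripts, which was not tested. HMGN3 read -0.28, -0.12, 0.91 and -0.15 with high energy in dye 5 and 0.028, 0.0046, -0.26 and -0.23 with the dyes swapped. A single array, that of couple 3, stood above the rest, and the mean was -0.034 ± 0.14 (turned 0.079). The sign of that mean turned to 0.026 without couple 1 and 0.033 without couple 4.

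**Figure D2:**
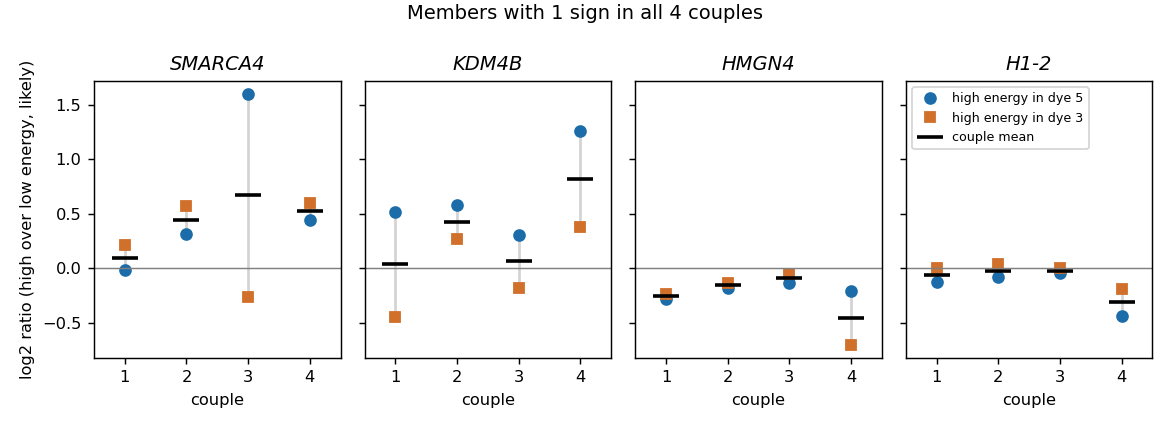
Log2 ratio (y axis, high over low energy, likely direction) of the 4 members with 1 sign in all 4 couples (x axis): circles are the arrays with high energy in dye 5, squares those with high energy in dye 3, joined by a line, and bars the couple means. The arrays of couple 3 are far apart for SMARCA4 (1.60 and -0.26), and those of KDM4B are higher with high energy in dye 5 in every couple.

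The 6 histone genes were split evenly, 3 above and 3 below 0, with a median of -0.000097. H1-2, a linker histone, read -0.13, -0.078, -0.047 and -0.43 with high energy in dye 5 and 0.000043, 0.034, -0.0018 and -0.19 with the dyes swapped. Couple 4 was the low one in either orientation, while the 3 other couple means lay between -0.064 and -0.022. With high energy in dye 5, the -0.43 of couple 4 was the mean of -0.85 and -0.015 on the 2 spots. The swapped array of that couple read -0.20 and -0.18. The mean was -0.12 ± 0.096 (turned -0.070; adjusted p = 0.996), and -0.035 without couple 4.

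H2AC18, a core histone H2A of the replication-dependent type, read -0.23, 0.36, -0.27 and -0.33 with high energy in dye 5 and -0.29, -0.12, -0.14 and -0.12 with the dyes swapped. Of its 8 arrays 7 lay below 0, the exception being couple 2 with high energy in dye 5. The mean was -0.13 ± 0.10 (turned 0.034), and -0.23 without couple 2. H2AZ1, the H2A.Z variant found at promoters, read 0.19, -0.35, 0.36 and 0.075 with high energy in dye 5 and -0.27, -0.10, 0.24 and 0.14 with the dyes swapped. Couple 3 was the highest and couple 2 below 0 in both orientations, though couple 1 was the lowest with the dyes swapped. The spots disagreed: in couple 2, 1 spot read -0.74 and -0.28 and the other 0.048 and 0.075. The -0.27 of couple 1 was the mean of 0.21 and -0.76. The mean was 0.017 ± 0.13 (turned 0.011), and it was -0.052 without couple 3 and -0.022 without couple 4. The variant H2AJ had -0.018 ± 0.084 (turned -0.076).

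H2BC12, a core H2B, read 0.11, 0.11, -0.12 and -0.15 with high energy in dye 5 and 0.26, 0.15, 0.016 and -0.15 with the dyes swapped. Couples 1 and 2 lay above 0 and couple 4 below in both orientations, and the mean was 0.020 ± 0.11 (turned -0.034). H3-3A, the H3.3 variant that replaces H3 outside replication, read -0.22, 0.54, -0.41 and -0.098 with high energy in dye 5 and 0.49, 0.12, 0.42 and -0.25 with the dyes swapped. The signs of its 2 arrays disagreed in couples 1 and 3, and the mean was 0.076 ± 0.12 (turned -0.070; -0.033 without couple 2). On 3 of 8 arrays its 2 spots also lay on opposite sides of 0. With the dyes swapped they read -0.65 and 0.90 in couple 2 and -0.38 and 1.215 in couple 3. Clustered histone genes are near-identical in sequence, so the spots of H1-2, H2AC18 and H2BC12 may read several of them, and these were the 3 members whose symbols were absent from the pig gene tables used here. The 2 proliferation markers tested had ratios of 0.0096 (MCM3, turned -0.066) and -0.24 (RRM1, turned 0.11); their part in the histone values was not tested.

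Among the deacetylases, 4 of 5 means lay above 0 (3 of 5 when turned). HDAC2, a class I enzyme of the NuRD and SIN3 complexes, read -0.10, 0.72 and -0.62 in couples 1, 2 and 4 with high energy in dye 5, and 0.053, 0.41, 0.35 and 0.75 in couples 1 to 4 with the dyes swapped. With high energy in dye 3 all 4 arrays lay above 0, while the other orientation spread over both sides. The mean over 3 couples was 0.20 ± 0.15 (turned -0.20; adjusted p = 0.996), and 0.019 without couple 2, so that most of it came from couple 2. HDAC3, the class I enzyme of NCOR complexes, had 0.13 ± 0.13 in 3 couples (turned 0.033), and HDAC11, the class IV enzyme, 0.078 ± 0.13 in 3 couples (turned 0.15) with 6 of 7 arrays above 0.

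HDAC4 and HDAC5, class IIa enzymes that hold back MEF2 in muscle until they are phosphorylated, had the smallest spread over arrays among the deacetylases. HDAC5 lay between -0.087 and 0.10 on its 8 arrays. Its SD over arrays of 0.063 was lower than that of all but 0.637% of the features tested, and its mean was 0.038 ± 0.081 (turned -0.018). HDAC4 had -0.041 ± 0.086 (turned 0.057), with all arrays between -0.21 and 0.12.

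Of the 5 acetyltransferases, 4 were tested and 3 of these had means below 0, also when turned, though KAT14 and KAT8 then traded sides. KAT2A, the GCN5 enzyme of SAGA, read -0.46, 0.61, -2.99 and 0.061 with high energy in dye 5 and -0.15, -0.79, -0.074 and 0.063 with the dyes swapped. The value of -2.99 came from a single spot, as the other had no value on that array, and that spot read 0.86 on the swapped array. The mean was -0.38 ± 0.35 (turned -0.11; adjusted p = 0.996), the lowest of the 25, and without couple 3 it was -0.11. KAT14, a component of the ATAC complex, read 0.054, 0.23 and -0.16 in couples 2 to 4 with high energy in dye 5 and -0.12, -0.20, -0.66 and -0.19 in couples 1 to 4 with the dyes swapped. Averaged over its spots, it lay below 0 on every array with high energy in dye 3 and on 1 of 3 in the other orientation. The spots disagreed, on opposite sides of 0 on 5 of 7 arrays, with 7 spot values above 0 and 7 below. With the dyes swapped, both spots lay below 0 in couple 3 alone. The mean was -0.16 ± 0.096 in 3 couples (turned 0.20).

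KAT5, the TIP60 enzyme, had -0.19 ± 0.16 (turned -0.085), with arrays between -1.27 and 0.80 and both extremes in couple 4. KAT8 (MOF), which acetylates histone H4, had 0.0077 ± 0.086 (turned -0.032), with arrays between -0.12 and 0.15. KAT7 (HBO1) lay between -0.50 and 0.69 on 5 arrays, and with both orientations in 2 couples it was not tested.

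KDM4B (Entrez gene 23030), a demethylase of lysine on histone H3, had the smallest p of the members in the turned contrast. It read 0.52, 0.58, 0.31 and 1.26 in couples 1 to 4 with high energy in dye 5, and -0.44, 0.27, -0.18 and 0.38 with the dyes swapped. All 4 arrays of the first orientation lay above 0, and in each couple the first array was the higher, although the 2 orientations overlapped. The diet mean was 0.39 ± 0.16 (a 1.31-fold difference) and the turned mean 0.32 ± 0.11, with adjusted p = 0.996 and 0.998, so that neither passed over all features and the 2 readings were of similar size. Couple 4 carried much of the diet mean, which was 0.21 without it. The spots disagreed: 1 spot read between 0.52 and 1.30 on the 4 arrays with high energy in dye 5, while the other read 0.042, -0.29 and 1.22 on the 3 where it had a value.

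KMT2E, the SET domain protein MLL5, read -0.12, 0.29, 0.19 and 0.084 with high energy in dye 5 and -0.029, 0.039, -0.035 and -0.41 with the dyes swapped. Its diet mean was 0.00099 ± 0.10 (turned 0.12), the closest to 0 of all members. CBX1, the HP1 beta protein that binds methylated histone H3, read 0.19, -0.63, -0.10 and -0.28 in couples 1 to 4 with high energy in dye 5, and 0.019, 0.21 and -0.25 in couples 1 to 3 with the dyes swapped. Both orientations lay on either side of 0, and the mean over 3 couples was -0.11 ± 0.14 (turned -0.13), with -0.19 without couple 1, -0.037 without couple 2 and -0.052 without couple 3.

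**Figure D3:**
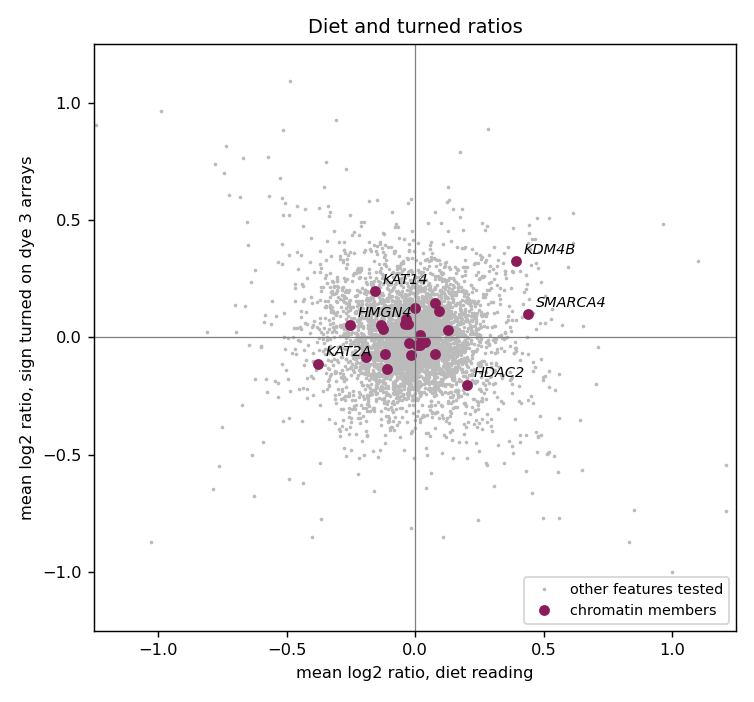
Mean log2 ratio in the diet reading (x axis) against the turned mean, with the sign reversed on the arrays with high energy in dye 3 (y axis); large points are the 25 chromatin genes tested and small points the other features, of which 1 lies outside the axes. SMARCA4 lies near the x axis (0.44 and 0.10), KDM4B is about as far from both axes (0.39 and 0.32), and all members lie within the range of the other features.

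Of the 25 members, 12 had diet and turned means of opposite sign, among them HMGN4, HDAC2 and KAT14, as had 2499 of all 5025 features. SMARCA4, KDM4B, KAT2A and H1-2 had the same sign under both readings. The sign of any single member therefore rests on the likely reading of the values except where both agree. Agreement does not settle a direction, as no member passed over all features under either reading. The turned mean was 0.10 ± 0.28 for SMARCA4 and -0.11 ± 0.41 for KAT2A.

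Members with a higher recovered signal varied less. The signal was recovered as the larger whole number of the simplest ratio that gives a value, which is a lower bound on brightness and does not rank the levels of different probes. The 9 members with a median recovered signal of at least 1000, H1-2, H2AJ, H2AZ1, HDAC4, HDAC5, HMGN2, HMGN4, KAT8 and SMARCD3, had SDs over arrays of 0.063 to 0.252, with a median of 0.132. The 18 members with a lower recovered signal had SDs of 0.156 to 1.10, with a median of 0.380. Over all features tested the medians were 0.188 for 1297 features at or above that bound and 0.382 for 3728 below it. Spearman's rho between signal and SD was -0.77 across the 27 members and -0.50 across the 5025 features; genes share arrays and are not independent, and each SD rests on the same values as the signal.

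HMGN4, with a recovered signal of 4331, had the largest ratio of these 9 members, whereas those of the other 8 were 0.13 or less in size. SMARCA4 and KDM4B, the members with the highest ratios, had recovered signals of 219.9 and 417, and KAT2A, with the lowest ratio, 219.2. When values with a recovered signal under 200 were left out, 17 members could be tested, and KDM4B and KAT2A had too few values. SMARCA4 then had 0.47 ± 0.26 and its unadjusted p was no longer under 0.05 (adjusted p = 0.856 in limma), whereas HMGN4 had -0.25 ± 0.093 with an unadjusted p under 0.05 (adjusted p = 0.803).

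**Figure D4:**
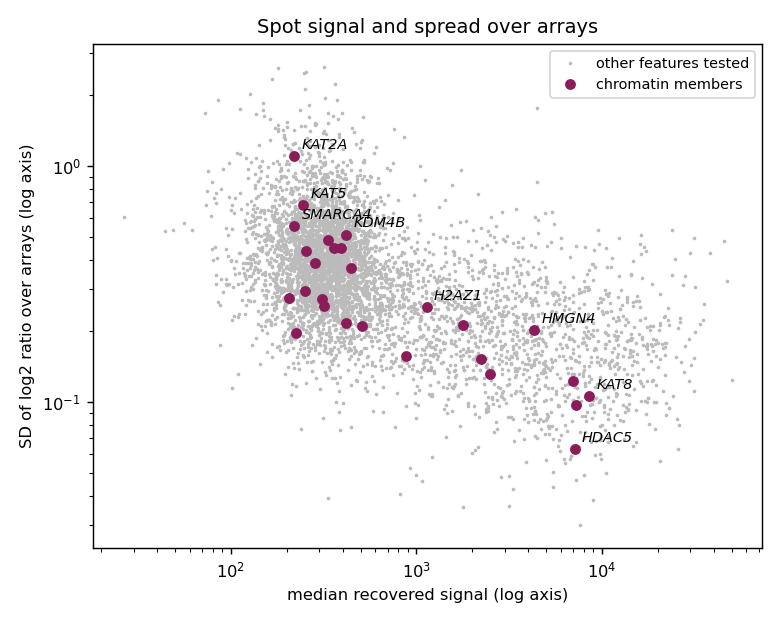
Median recovered signal (x axis, log scale) against the SD of the log2 ratio over arrays (y axis, log scale); large points are the 27 chromatin genes and small points the other features tested. HDAC5, KAT8 and HMGN4, on the right, have SDs of 0.063, 0.106 and 0.201, and KAT2A, KAT5 and SMARCA4, on the left, have SDs of 1.10, 0.684 and 0.556.

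Chromatin genes without these prefixes gave no call either. Of 179 such genes listed, 45 were on the array and 33 were tested, 14 above and 19 below 0, with a median of -0.0040 (turned -0.027), and 0 had an unadjusted p under 0.05 beside 3.78% of all features. Histone chaperones, architectural and cohesin proteins had 5 of 13 above 0 and a median of -0.060. In that list NAP1L4, a chaperone of H2A and H2B, had -0.27 ± 0.15 (turned 0.10) with 7 of 8 arrays below 0, and HP1BP3, a linker histone relative, -0.24 ± 0.11 in 3 couples (turned -0.087).

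No partner of the members passed the test. Of 5 deacetylase partners 2 were above 0, with SAP18 of the SIN3 complex at 0.089 ± 0.091 (turned -0.014) and GPS2 of the NCOR complex at -0.093 ± 0.11 in 3 couples (turned -0.16). The 1 tested SWI/SNF partner, ARID1A, had -0.033 ± 0.090 (turned -0.15) beside the 0.44 of SMARCA4. All 3 genes of other remodelling complexes were above 0 (2 when turned), but the lowest mean was 0.00052. RUVBL1 had 0.073 ± 0.095 (turned 0.12) and INO80C 0.022 ± 0.15 (turned -0.20), both smaller than their SE. Of 10 genes of methyltransferase complexes, polycomb and DNA methylation, 3 were above 0; PRMT1, an arginine methyltransferase, had -0.26 ± 0.18 in 3 couples (turned -0.32) and EHMT2, a lysine methyltransferase, 0.13 ± 0.13 (turned -0.055). Among acetyltransferases and bromodomain readers 1 was tested, MORF4L1, with 0.037 ± 0.097 (turned -0.026).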

How the data were processed

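The authors deposited 1 table of log2 ratios of the 2 channels of each array. To find the base, values were matched to fractions: by array 4.78% to 16.1% were base 2 logarithms of fractions of whole numbers up to 60 (within 2e-09), against 0% for base e and at most 0.20% for base 10. Array medians as deposited lay between -0.0071 and 0.012; for background correction, spot filters and array normalization the method was not stated in the sources used here. No date, slide or scan batch is given. Spots were named by the platform annotation (1 symbol for 6610 of 9984). Arrays were centred on their medians, spots of a gene averaged, and the 2 arrays of a couple averaged where both had a value. Features with at least 3 couples (5025) were fitted with limma 3.58.1 (lmFit, eBayes; R 4.3.3) against 0, two-sided, with couples 1 and 3 treated as correlated (0.5) because they share a sample, and Benjamini-Hochberg adjustment over all features. The fit was tested on simulated data. The couple rests on the sample names in the labels, which tie the swapped arrays together.

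The members and lists were chosen with earlier results of these data known. Values by array are given for members with an unadjusted p under 0.05 in either contrast or 1 sign on 8 arrays, and in each prefix for the member with the smallest p and the one with the largest SD. From each other list up to 2 genes with the smallest p are named.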

Additional observations from a re-analysis of the deposited data

Results flagged for a closer look

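For the 15 members whose values are given on every array, the extremes of 4 values were compared with the rest by Dixon's criterion. This was done for the couple means and for the 4 arrays of each dye orientation. In all, 39 groups of 4 were checked, chance marks about 1 in 20 independent groups, and 8 values stood apart. Some members were picked for the largest SD in their prefix, and couple means reuse the same arrays. The 8 values therefore cannot be set against that chance share. In H1-2, couple 4 had a couple mean of -0.31 against -0.064 to -0.022 in the others, and its array with high energy in dye 3 read -0.19 against -0.0018 to 0.034. That couple mean includes a spot value of -0.85. In H2AC18, couple 2 had a couple mean of 0.12 against -0.26 to -0.20, with 0.36 on its array with high energy in dye 5 against -0.33 to -0.23. With high energy in dye 3, couple 1 of the same gene read -0.29 against -0.14 to -0.12. This narrow range is one of spot means: the 2 spots read 0.077 and -0.33 in couple 2 and -0.86 and 0.59 in couple 3. HMGN3 read 0.91 in couple 3 with high energy in dye 5 against -0.28 to -0.12. KAT14 read -0.66 in couple 3 with high energy in dye 3 against -0.20 to -0.12, and KMT2E read -0.41 in couple 4 in that orientation against -0.035 to 0.039.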

How the results depend on the processing

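No setting gave a call in limma over all features (0 as reported and 0 in each alternative, one of them with every spot tested on its own), and over the 16 settings that included members the lowest adjusted p of a gene given with every array was 0.563. The number of features at an unadjusted p under 0.05, 190 as reported, was 343 with robust regression, 310 with couples as independent and 353 with all 8 arrays and the couple as a replicate block (correlation -0.0362), and 107 to 284 when 1 couple was left out, with 107 without couple 2 and 122 without couple 4. The count of such members, 1 as reported, was 2 without centring, with arrays scaled to 1 spread, with values limited to 2 log2, with couples as independent and with the replicate block, and 3 with all 4 couples required and with robust regression. Without values of a recovered signal under 200 it was 1, HMGN4 in place of SMARCA4. It was 0 without couple 2 or couple 4, when SMARCA4 no longer passed, and ranged from 0 to 3 over the couples left out. For the dye contrast, 133 features had such a p, 260 with couples as independent, 220 with couples 1 and 3 averaged, and 75 to 223 with 1 couple left out, with 223 without couple 1, 75 without couple 2 and 207 without couple 3. Of the 15 genes given with every array, 9 changed sign in no setting except the turned one. Turned, 7 changed sign, H2AC18 to 0.034, H2BC12 to -0.034, H3-3A to -0.070, HDAC2 to -0.20, HMGN3 to 0.079, HMGN4 to 0.054 and KAT14 to 0.20. CHD4 had 0.0077 with the median of spots, and without the low recovered signals H2BC12 had -0.0049 and H3-3A -0.11. Leaving out 1 couple gave -0.085 to 0.023 for CHD4, -0.052 to 0.12 for H2AZ1, -0.027 to 0.094 for H2BC12, -0.033 to 0.18 for H3-3A, -0.12 to 0.033 for HMGN3 and -0.069 to 0.071 for KMT2E. The cause of these changes was not tested. The number of couples limits the precision: the median SE of a member was 0.113.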
